A study of Mus musculus with 8 samples.

Results

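The genes described here are 35 enzymes, transporters and regulators of glucose breakdown: 4 of glucose and lactate transport, 16 of glycolysis, the 4 PFKFB genes, 8 of pyruvate entry into the mitochondrion and 3 of the pentose phosphate pathway. They were chosen by symbol, and all 35 were found among the 32499 genes of the count table. Total RNA had been sequenced on neural progenitor cells, sorted by flow cytometry with the dye NeuroFluor CDr3 from neural tubes of C57BL/6 mouse embryos at embryonic day 14. One group held 4 libraries labelled 53BP1 KO (KO-labelled below), from embryos that carried a CRISPR in-frame deletion of 53BP1 from the father and a Trp53bp1tm1Jc allele from the mother, per the labels' protocols. The labels do not say which deletion a library carried or how many founders were used. The other group held 4 control libraries, from wild-type embryos. The labels do not say whether a library came from 1 embryo or several, or whether its cells had been cultured in differentiation medium first, so p-values measure spread among these 8 libraries only, and it may be technical.

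Glycolysis splits glucose into pyruvate and yields ATP and NADH. Pyruvate is then reduced to lactate and exported, or enters the mitochondrion, where the pyruvate dehydrogenase complex turns it into acetyl-CoA and pyruvate carboxylase into oxaloacetate. The PFKFB enzymes set the level of fructose 2,6-bisphosphate, the activator of phosphofructokinase, and the pyruvate dehydrogenase kinases (Pdk genes) switch the dehydrogenase off by phosphorylation. The pentose phosphate pathway diverts glucose 6-phosphate into NADPH and ribose. Neural progenitors are known to rely on glycolysis more than neurons do.

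Total counts were between 15343046 and 18189045 in the controls and between 11081419 and 24339621 in the KO-labelled libraries, and the 35 genes took between 0.342% and 0.414% of them. Every control had at least 23853 counts of Xist, the RNA of the inactive X chromosome, and 0 counts of the Y-linked Ddx3y. Every KO-labelled library had at most 16 counts of Xist and at least 579 of Ddx3y, so that genotype label and sex cannot be told apart in any comparison here. Trp53bp1 had 412 to 497 raw counts in the controls, against 341 to 617 in the KO-labelled group, not scaled for depth. A whole-gene count does not check an in-frame deletion. A list of 9 progenitor markers, most of whose sum was Fabp7, came to 9481 to 11610 CPM in the controls, against 9000 to 12350 CPM in the KO-labelled group. Of these, 5 rose, Sox2 (0.78, SE 0.10 on the log2 scale) and Msi1 (0.87, SE 0.14) among them, and Nes (-0.90, SE 0.13) and Vim (-0.39, SE 0.09) fell. By the same test, described below, 16.1% of all genes tested rose and 13.9% fell. CPM is the usual depth-scaled read count, here computed on TMM-scaled library sizes. Control 4 stood apart from the other controls for several of the 35 genes, and values without it are given beside several of the results that it moved. Its marker sums were also apart: 223.2 CPM for astrocytes (other controls 356.5 to 371.1), 82.5 for mesenchyme (31.3 to 36.2) and 5910 for proliferation (4807 to 4993). It was also the highest control for progenitor markers (11610 CPM, others 9481 to 10360) and neuronal markers (522.6, others 398.8 to 457.1). The same held for skeletal muscle (44.29, others 32.83 to 39.21) and endothelium (13.32, others 5.975 to 8.899). Its sums for oligodendrocyte lineage, erythroid and microglial markers lay within the range of the other controls. The part of this in the results was not tested.

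All 35 genes had enough counts to be tested. In the KO-labelled libraries 12 rose and 6 fell by the quasi-likelihood test of edgeR over all 15021 genes tested (Benjamini-Hochberg adjusted p below 0.05). Of all genes tested 30.0% passed, 16.1% higher and 13.9% lower, a large part of the transcriptome. The groups did not overlap in CPM for 15 of the 35, beside 29.9% of all genes tested. The median log2 fold change of the 35 was 0.10, beside 0.00106 over all genes tested. Without control 4, 10 rose and 8 fell and the median was 0.01. The number of falls was 2 without control 1, 3 without control 3, 2 without KO-labelled 1 and 1 without KO-labelled 4. Leaving out a library also lowers the power of the test, so a lost call need not mean a smaller change. Of the changes past 0.5 in size on the log2 scale, rises were in the lactate exporter Slc16a3, Pdk1, Pdk4, Pfkfb3, Pdk2 and Pfkl, and falls in Pfkfb1 and Pgd. Of the 16 glycolytic genes, 12 did not pass. The rises came to 5 of 8 genes of pyruvate entry, 3 of 16 of glycolysis, and 2 of 4 in each of the transport and PFKFB groups. The falls came to 1 gene in each of these 4 groups and 2 of 3 in the pentose phosphate pathway. The other 17 genes did not pass. In simulated data of 14757 genes, the test recovered 76.3% of 97 genes given a 2-fold change and 41.0% of 100 given a 1.5-fold one. A far smaller share of genes was changed there than passed here, so these rates need not hold for this comparison. Smaller differences may still have been missed.

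**Figure D1:**
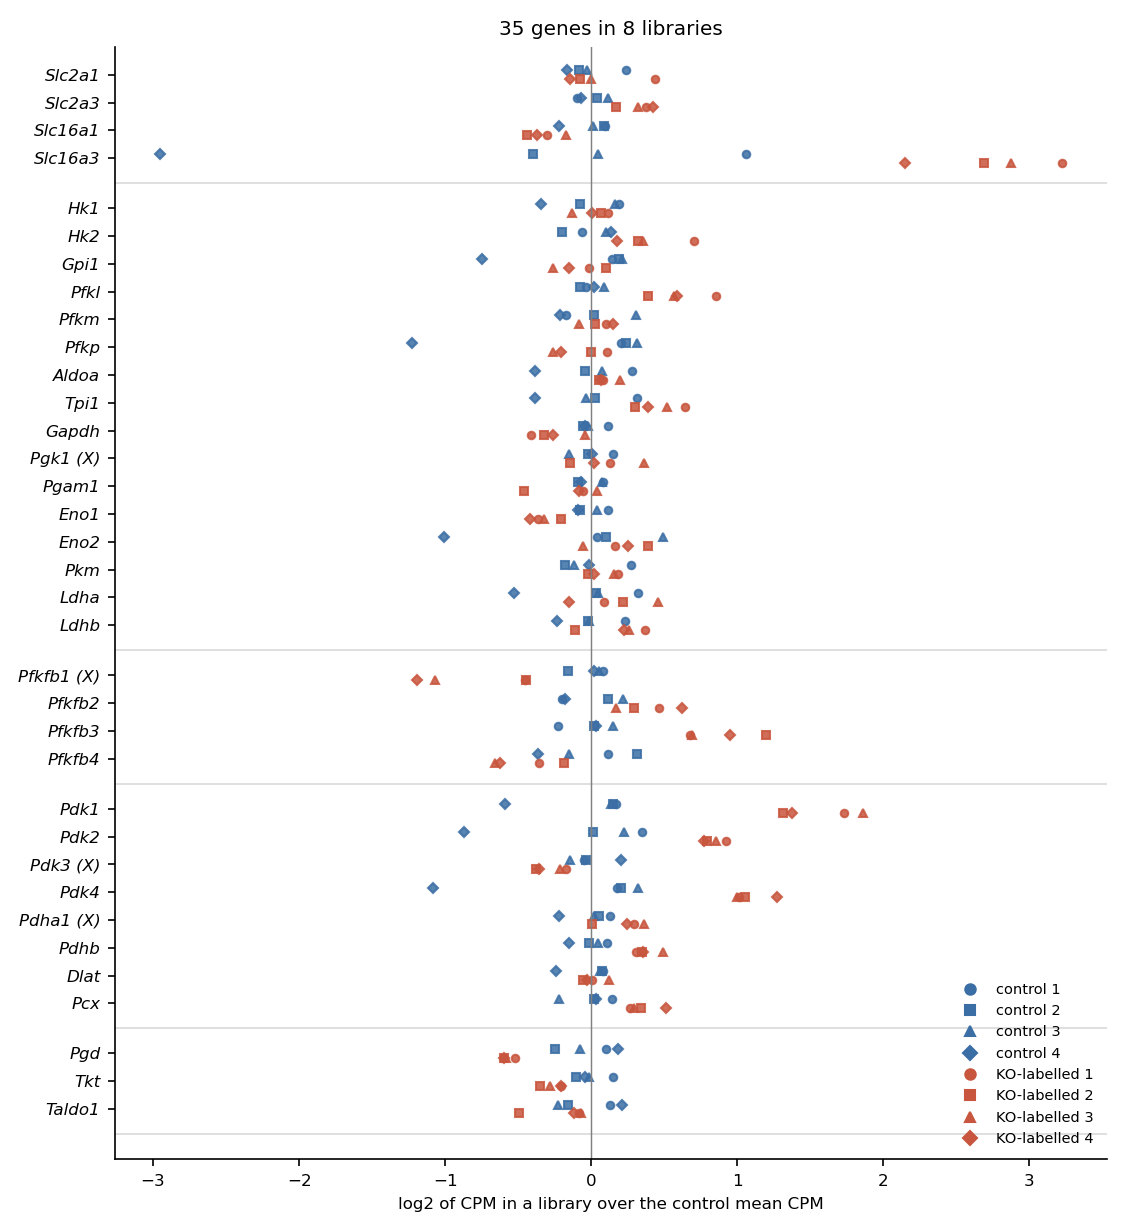
Level of each of the 35 genes in each library, as the log2 of its CPM over the mean of the 4 controls (blue, controls; red, KO-labelled; marker shape, replicate number; X, on the X chromosome). Pdk1, Pdk2, Pdk4, Pfkfb3 and Slc16a3 have all 4 KO-labelled libraries above all 4 controls, and control 4 lies far to the left for Slc16a3, Pfkp, Eno2, Gpi1 and Pdk4.

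Among the transporters, Slc16a3 and Slc2a3 rose and Slc16a1 fell. Slc16a3, which encodes the lactate exporter MCT4, had 1.04, 0.380, 0.516 and 0.0647 CPM in controls 1 to 4 and 4.67, 3.22, 3.66 and 2.22 CPM in KO-labelled 1 to 4. The highest control was below the lowest KO-labelled library. The controls held 35 counts in all, 1 of them in control 4, and the KO-labelled libraries 250. The log2 fold change was 2.73 (SE 0.44, adjusted p = 0.000346 by edgeR), or 2.38 without control 4. Slc16a1, the far more abundant transporter MCT1 of lactate and pyruvate, had 516, 515, 489 and 417 CPM in controls 1 to 4 and 394, 358, 431 and 374 CPM in KO-labelled 1 to 4. It fell (-0.32 on the log2 scale, SE 0.10, adjusted p = 0.0218 by edgeR), with KO-labelled 3 above control 4, and the call was lost without control 1, 2 or 3 or KO-labelled 1 or 4. Per kb of exon, Slc16a3 made up 0.0824 ± 0.0647% of the summed level of the pair in controls against 0.730 ± 0.200% in KO-labelled libraries (SD, n = 4). MCT1 transcripts were the large majority of the pair in both groups.

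Slc2a1, the widely used transporter GLUT1, had 16.9, 13.6, 14.1 and 12.8 CPM in controls 1 to 4 and 19.4, 13.6, 14.3 and 13.0 CPM in KO-labelled 1 to 4, and the groups overlapped (log2 fold difference 0.07, 95% interval -0.23 to 0.38). Slc2a3, the neuronal glucose transporter GLUT3, had 8.17, 9.01, 9.48 and 8.34 CPM in controls 1 to 4 and 11.4, 9.84, 10.9 and 11.7 CPM in KO-labelled 1 to 4, with no overlap. Its rise was at the edge of the threshold (log2 fold difference 0.33, SE 0.12, adjusted p = 0.0485 by edgeR) and was kept in 2 of 17 alternative settings. Among the other sugar and lactate carriers on a list of 12, 9 could be tested. Of these 2 rose and 1 fell (30.0% of all genes tested passed). Bsg, which encodes the basigin chaperone of MCT1 and MCT4, rose from 25.0 ± 4.59 to 34.9 ± 5.44 CPM (SD, n = 4, log2 fold difference 0.48, SE 0.14); its call was lost without control 3 or KO-labelled 1 or 3. Slc2a10 rose (0.81, SE 0.23) and Slc2a6 fell (-1.48, SE 0.36), both below 3 CPM in every control.

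In glycolysis, 3 enzymes rose, Pfkl, Tpi1 and Hk2. Pfkl, the liver-type subunit of phosphofructokinase, the main control point of the pathway, had 91.6, 88.9, 99.4 and 95.2 CPM in controls 1 to 4 and 169.7, 123, 139 and 141 CPM in KO-labelled 1 to 4. All KO-labelled libraries lay above all controls, 1.53-fold higher on average (log2 fold difference 0.61, SE 0.10, adjusted p = 0.000372 by edgeR). The other subunit genes did not pass. Pfkm, the muscle-type subunit, had 11.5, 13.1, 15.99 and 11.1 CPM in controls 1 to 4 and 13.9, 13.2, 12.2 and 14.3 CPM in KO-labelled 1 to 4 (log2 fold difference 0.05, 95% interval -0.23 to 0.34). Pfkp, the platelet-type subunit, had 32.4, 33.3, 34.95 and 12.0 CPM in controls 1 to 4 and 30.4, 28.1, 23.5 and 24.4 CPM in KO-labelled 1 to 4. Control 4 was far below the other controls for Pfkp. With it the log2 fold change was -0.09 (95% interval -0.60 to 0.42), and without it Pfkp was lower in the KO-labelled libraries (-0.35, adjusted p = 0.025 by edgeR). Per kb of exon, Pfkl took 70.4 ± 4.71% of the summed subunit level in controls against 78.0 ± 2.05% in KO-labelled libraries (SD, n = 4). The summed level went from 20.0 ± 1.61 to 27.4 ± 3.15 CPM per kb (SD, n = 4). These values depend on the exon lengths used, 6.675 kb for Pfkl, 3.34 kb for Pfkm and 13.401 kb for Pfkp.

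Hexokinase traps glucose in the cell as glucose 6-phosphate. Hk2, its inducible form, had 88.0, 79.9, 98.7 and 101 CPM in controls 1 to 4 and 149.5, 115, 118 and 104 CPM in KO-labelled 1 to 4. The groups did not overlap, though KO-labelled 4 lay just above control 4. The rise (0.40, SE 0.12, adjusted p = 0.0177 by edgeR) was lost without control 2 or KO-labelled 1. Hk1, the housekeeping form, had 74.7, 62.1, 73.4 and 51.5 CPM in controls 1 to 4 and 70.7, 68.5, 59.7 and 65.7 CPM in KO-labelled 1 to 4, and the groups overlapped (log2 fold difference 0.02, 95% interval -0.23 to 0.26, or -0.09 without control 4). Tpi1, triosephosphate isomerase, rose from 148 ± 29.1 to 205 ± 21.7 CPM (SD, n = 4, log2 fold difference 0.47, SE 0.13, adjusted p = 0.0133 by edgeR), with control 1 inside the range of the KO-labelled libraries.

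Eno1, the main enolase, was the glycolytic gene that fell. It had 48.3, 42.4, 46.0 and 42.0 CPM in controls 1 to 4 and 34.8, 38.8, 35.6 and 33.5 CPM in KO-labelled 1 to 4, and every KO-labelled library lay below every control (-0.33, SE 0.09, adjusted p = 0.0164 by edgeR). The call was lost without KO-labelled 1 or 4 and without a filter on low counts. The value is uncertain because the table lists a near copy, Eno1b, with more counts than Eno1 itself, 4655 against 3025 over the controls and 3304 against 2582 over the KO-labelled libraries. With both added together the log2 fold change was -0.50 (SE 0.11, adjusted p = 0.0041 by edgeR), a setting chosen after the data had been seen. Eno2, the neuronal enolase, had 3.07, 3.20, 4.19 and 1.49 CPM in controls 1 to 4 and 3.35, 3.92, 2.88 and 3.56 CPM in KO-labelled 1 to 4, and the groups overlapped (0.19, 95% interval -0.36 to 0.74, or -0.04 without control 4, the lowest library).

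The remaining enzymes of the chain did not pass. Gapdh, often used as a reference gene, had 75.2, 66.6, 68.3 and 67.4 CPM in controls 1 to 4 and 52.2, 55.6, 67.3 and 57.8 CPM in KO-labelled 1 to 4; its log2 fold change was -0.25 (SE 0.10, adjusted p = 0.0626 by edgeR), and it passed as lower in 7 of 17 alternative settings, DESeq2 and voom among them. KO-labelled 3 was inside the range of the controls. Gpi1, glucose phosphate isomerase, had 85.6, 88.5, 89.6 and 46.0 CPM in controls 1 to 4 and 76.5, 83.1, 64.5 and 69.8 CPM in KO-labelled 1 to 4. Control 4 was again the low library, and Gpi1 passed as lower without it (-0.27, adjusted p = 0.0459 by edgeR). Aldoa, aldolase, had a log2 fold change of 0.10, or -0.02 without control 4, and Pgk1, phosphoglycerate kinase, 0.10. Pgam1, phosphoglycerate mutase, had -0.13, and also -0.13 with the reads of its pseudogene Pgam1-ps2 added. Pkm, pyruvate kinase, whose splice forms a gene count does not separate, had 0.09. The 95% intervals of these 4 genes lay between -0.35 and 0.36. Gapdh, Aldoa, Pgam1 and Ldha have processed pseudogenes, and the handling of reads that fit several places is not given in the sources used here, so their counts may be incomplete.

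Lactate dehydrogenase interconverts pyruvate and lactate. Ldha, its muscle-type subunit, had 29.9, 24.6, 24.8 and 16.6 CPM in controls 1 to 4 and 25.5, 27.9, 32.9 and 21.6 CPM in KO-labelled 1 to 4 (0.16, 95% interval -0.19 to 0.52, or 0.01 without control 4, the lowest library). Ldhb, the heart-type subunit, had 58.9, 49.4, 49.5 and 42.7 CPM in controls 1 to 4 and 64.7, 46.3, 59.9 and 58.7 CPM in KO-labelled 1 to 4 (0.20, 95% interval -0.06 to 0.46). Both sets overlapped. Per kb of exon, Ldhb made up 81.7 ± 1.83% of the pair in controls against 81.6 ± 3.61% in KO-labelled libraries (SD, n = 4). This share depends on the exon lengths used, 3.31 kb for Ldha and 1.57 kb for Ldhb. As Ldha counts may also be incomplete, the true share of Ldhb is uncertain. On a list of 14 other isoenzymes of the pathway, 5 could be tested and 1 rose (30.0% of all genes tested passed). That was Aldoc, the brain aldolase and a gene of astrocytes, from 48.2 ± 12.1 to 77.1 ± 3.66 CPM (SD, n = 4, log2 fold difference 0.68, SE 0.14, adjusted p = 0.00221 by edgeR). Astrocyte markers were higher too, 6 of 7 on a list that leaves out Aldoc (16.1% of all genes tested were higher). Their sum was 223.2 to 371.1 CPM in the controls, against 963.6 to 1112 CPM in the KO-labelled group. None was at 0, and their part in any result here was not tested. In bulk RNA, more cells of a type and more RNA per cell cannot be told apart.

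**Figure D2:**
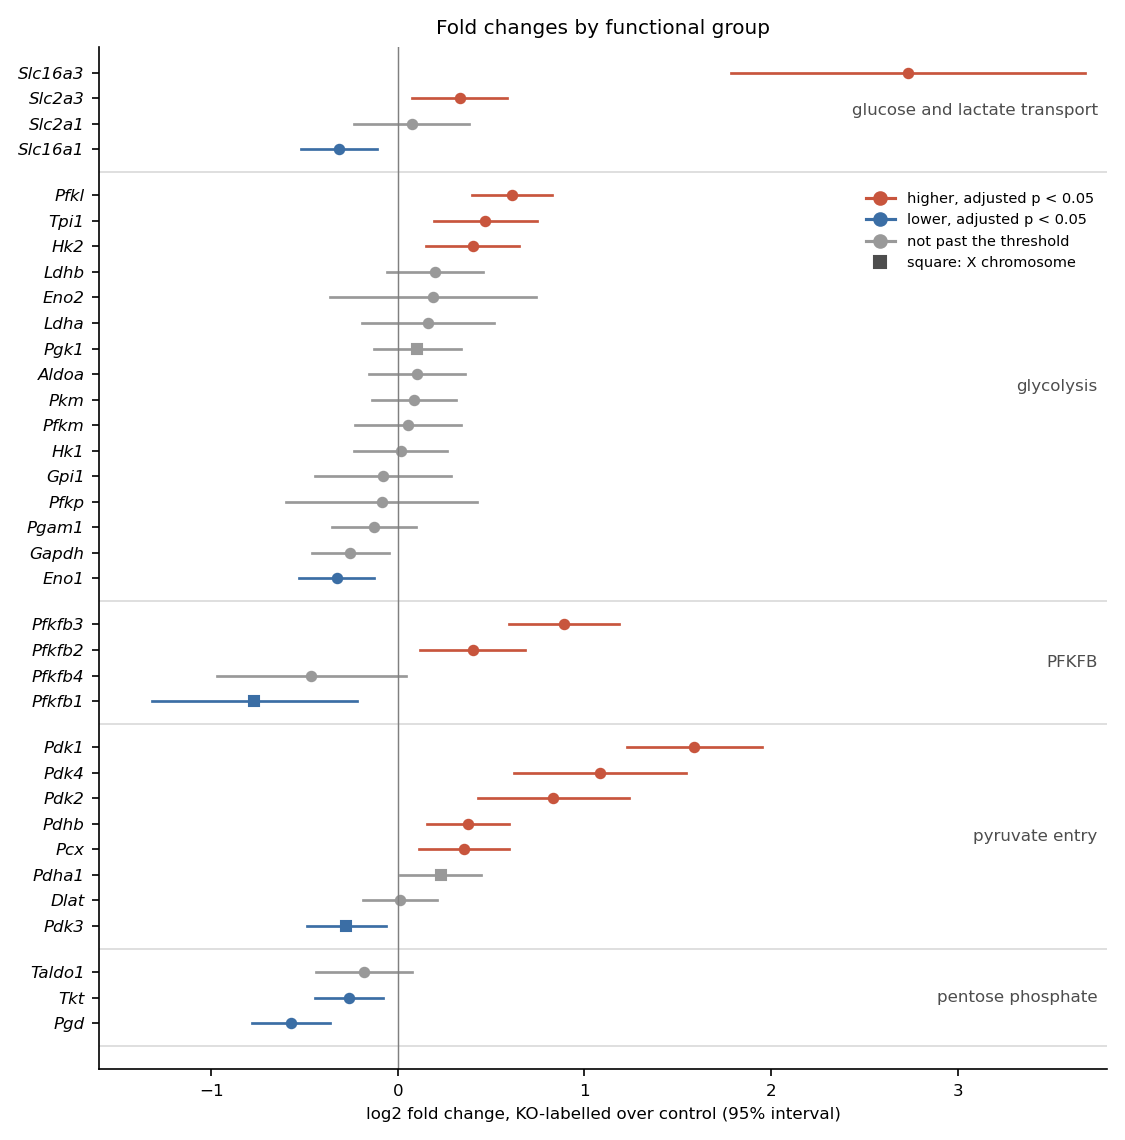
Log2 fold change of each gene, KO-labelled over control, with its 95% interval from edgeR, grouped by function (red, higher; blue, lower; grey, not past an adjusted p of 0.05; squares, X chromosome). Slc16a3, Pdk1, Pdk4, Pfkfb3 and Pdk2 have the highest values, from 2.73 down to 0.83, and the intervals of 11 of the 16 glycolytic genes include 0.

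The PFKFB genes moved in both directions. Pfkfb3, the form with the strongest kinase activity, which raises fructose 2,6-bisphosphate and so glycolytic flux, had 9.70, 11.5, 12.6 and 11.6 CPM in controls 1 to 4 and 18.2, 26.1, 18.3 and 22.0 CPM in KO-labelled 1 to 4. Each KO-labelled library was above each control, 1.85-fold higher on average (log2 fold difference 0.89, SE 0.14, adjusted p = 0.000244 by edgeR). Pfkfb2, the heart form, had 16.7, 20.8, 22.3 and 17.0 CPM in controls 1 to 4 and 26.5, 23.6, 21.6 and 29.5 CPM in KO-labelled 1 to 4. KO-labelled 3 lay below control 3, and the rise (0.40, SE 0.13, adjusted p = 0.0315 by edgeR) was lost without control 1 or 4 or KO-labelled 1 or 4. Pfkfb1, the liver form, is on the X chromosome and had 2.63, 2.23, 2.58 and 2.52 CPM in controls 1 to 4 and 1.82, 1.83, 1.18 and 1.09 CPM in KO-labelled 1 to 4. It fell (-0.77, SE 0.26, adjusted p = 0.0354 by edgeR) on 168 counts over the controls and 105 over the KO-labelled libraries, and the call was lost without control 1 or 3 or KO-labelled 3 or 4. Pfkfb4 had 2.80, 3.20, 2.32 and 2.00 CPM in controls 1 to 4 and 2.02, 2.26, 1.63 and 1.68 CPM in KO-labelled 1 to 4 and did not pass (-0.46, 95% interval -0.97 to 0.04). Per kb of exon, Pfkfb2 was about as large a share of the family in the controls (49.8 ± 2.42%) as in the KO-labelled libraries (49.6 ± 4.98%). Pfkfb3 made up 28.4 ± 2.07% and 39.6 ± 4.42% (SD, n = 4).

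In pyruvate entry, 3 of the 4 kinase genes rose without overlap between the groups. Of all genes tested, 16.1% rose and 29.9% had groups that did not overlap. Pdk1, a pyruvate dehydrogenase kinase known as a target of the hypoxia factor HIF1, had 15.8, 15.6, 15.4 and 9.31 CPM in controls 1 to 4 and 46.6, 34.8, 51.0 and 36.4 CPM in KO-labelled 1 to 4. The lowest KO-labelled library was far above the highest control. The gene was 3.01-fold higher, a log2 fold change of 1.59 with an SE of 0.17 (adjusted p = 9.16e-06 by edgeR), or 1.43 without control 4. Pdk4, the kinase induced by fasting and fatty acids, had 7.89, 8.03, 8.71 and 3.30 CPM in controls 1 to 4 and 14.1, 14.5, 13.9 and 16.9 CPM in KO-labelled 1 to 4. It was 2.12-fold higher (log2 fold difference 1.08, SE 0.22, adjusted p = 0.00168 by edgeR), or 0.85 on the log2 scale without control 4, the low library. Pdk2, the most widely expressed kinase, had 18.2, 14.4, 16.7 and 7.82 CPM in controls 1 to 4 and 27.1, 24.7, 25.8 and 24.4 CPM in KO-labelled 1 to 4. It rose as well (0.83, SE 0.19, adjusted p = 0.00405 by edgeR), or 0.62 without control 4.

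Pdk3, on the X chromosome, went the other way. It had 68.1, 68.7, 63.7 and 81.2 CPM in controls 1 to 4 and 62.5, 54.3, 60.9 and 55.0 CPM in KO-labelled 1 to 4, every KO-labelled library below every control, but close to the threshold (-0.28, SE 0.10, adjusted p = 0.047 by edgeR). The call was lost when any library other than control 3 was left out. In those fits the log2 fold change lay between -0.31 (without KO-labelled 1) and -0.21 (without control 4). Per kb of exon, Pdk3 was the most abundant of the 4 kinases in all 8 libraries. Its share of their summed level was between 71.9% and 87.3% in the controls and between 55.5% and 56.8% in the KO-labelled libraries. The share of Pdk1 was 5.04 ± 1.17% in controls against 13.3 ± 1.67% in KO-labelled libraries (SD, n = 4). The sum over the 4 kinases was 35.8 ± 0.884 and 40.4 ± 2.69 CPM per kb (SD, n = 4).

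A phosphatase that undoes this phosphorylation fell. Pdp2, a catalytic subunit, had 76.5, 75.3, 76.9 and 62.9 CPM in controls 1 to 4 and 34.6, 36.0, 31.2 and 35.6 CPM in KO-labelled 1 to 4. It fell 2.12-fold (log2 fold difference -1.09, SE 0.10, adjusted p = 1.68e-06 by edgeR), with the groups far apart. Pdp1, the other catalytic subunit, named after its values had been seen, had 3.95, 2.55, 4.71 and 4.72 CPM in controls 1 to 4 and 2.85, 2.61, 2.65 and 2.43 CPM in KO-labelled 1 to 4 and did not pass (-0.59, SE 0.22, adjusted p = 0.0545 by edgeR). Both are from a list of 7 further genes of pyruvate entry, of which 2 rose and 1 fell (30.0% of all genes tested passed).

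Among subunits of the pyruvate dehydrogenase complex, Pdhb, Pdhx and Dld rose. Pdhb, the beta subunit of its first enzyme, had 19.8, 18.2, 19.0 and 16.6 CPM in controls 1 to 4 and 22.7, 23.4, 25.8 and 23.5 CPM in KO-labelled 1 to 4 and rose (0.38, SE 0.10, adjusted p = 0.0121 by edgeR). Pdhx, the binding protein of the third enzyme, rose by 0.38 (SE 0.09) and Dld, that enzyme itself, by 0.33 (SE 0.11); the Dld call was lost without control 2, 3 or 4 or KO-labelled 1, 3 or 4. Pdha1, the X-linked alpha subunit that the kinases phosphorylate, had 338, 321, 314 and 265 CPM in controls 1 to 4 and 378, 310.4, 397 and 366 CPM in KO-labelled 1 to 4. It did not pass (0.23, 95% interval 0.01 to 0.45, adjusted p = 0.102 by edgeR), but passed as higher without a filter on low counts, with voom and without KO-labelled 2. Dlat, the core acetyltransferase, ranged from 227.5 to 283.8 CPM in the controls and from 258.2 to 292.8 CPM in the KO-labelled libraries (0.01, 95% interval -0.19 to 0.21, or -0.07 without control 4, the lowest library). Pcx, pyruvate carboxylase, the other route of pyruvate into the citrate cycle, rose from 16.2 ± 1.65 to 20.7 ± 1.62 CPM (SD, n = 4, log2 fold difference 0.36, SE 0.11, adjusted p = 0.027 by edgeR), a call lost without control 2 or 3 or KO-labelled 4.

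**Figure D3:**
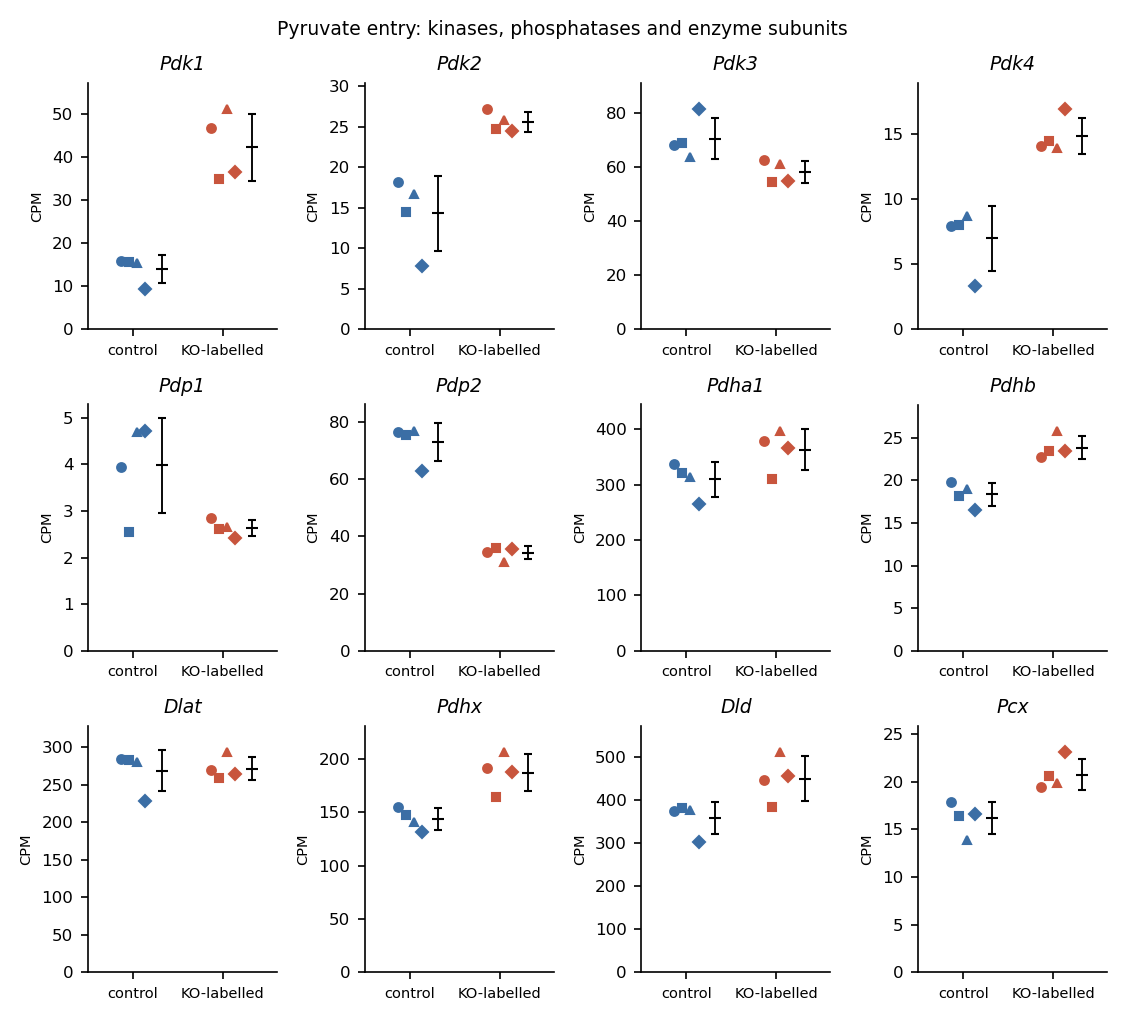
CPM of the 4 pyruvate dehydrogenase kinases, the phosphatase genes Pdp1 and Pdp2, 5 subunits of the complex and pyruvate carboxylase, by library (points; shape, replicate number; bars, mean ± SD, n = 4). Pdk1, Pdk2 and Pdk4 are higher and Pdp2 lower in every KO-labelled library, and control 4 is the lowest control for Pdk1, Pdk2 and Pdk4 and the highest for Pdk3.

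In the pentose phosphate pathway Pgd and Tkt fell. Pgd, 6-phosphogluconate dehydrogenase, an NADPH-producing step, had 133, 105, 118 and 141 CPM in controls 1 to 4 and 86.5, 82.3, 83.1 and 82.3 CPM in KO-labelled 1 to 4. The KO-labelled libraries were close together and all below the controls, 1.49-fold lower (log2 fold difference -0.57, SE 0.10, adjusted p = 0.000522 by edgeR). Tkt, transketolase, which links the pathway back to glycolysis, had 689.8, 579, 617 and 606 CPM in controls 1 to 4 and 539.6, 489, 512 and 540.1 CPM in KO-labelled 1 to 4. It fell less (-0.26, SE 0.09, adjusted p = 0.0325 by edgeR), also with no overlap, and the call was lost without control 1 or 3 or any 1 of the KO-labelled libraries. Taldo1, transaldolase, had 136, 112, 107 and 145 CPM in controls 1 to 4 and 118, 88.5, 119 and 115 CPM in KO-labelled 1 to 4 and did not pass (-0.18, 95% interval -0.44 to 0.08). Of 10 further genes of this pathway and of phosphoribosyl pyrophosphate synthesis, 8 could be tested. Among those, 3 rose and 2 fell (30.0% of all genes tested passed). Shpk, sedoheptulokinase, rose by 0.94 (SE 0.20) and Rpia, ribose 5-phosphate isomerase, by 0.34 (SE 0.10), the latter lost without control 2 or 3 or KO-labelled 4. Prps1 and Prps2, the X-linked synthases of phosphoribosyl pyrophosphate, a precursor of nucleotides, fell as well (-0.45, SE 0.10, and -0.43, SE 0.09). On a list of proliferation markers 10 of 10 fell (13.9% of all genes tested were lower). Their sum was 4807 to 5910 CPM in the controls, against 2529 to 3222 CPM in the KO-labelled group. Their part in the results for this pathway was not tested.

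Of the 35 genes, 4 are X-linked, and 2 of these fell (Pfkfb1 and Pdk3) while Pgk1 and Pdha1 did not pass. On the whole X chromosome, 32.6% of 527 genes tested passed and 19.2% were lower. Leaving out the 4 genes kept the 12 rises and left 4 falls. Control libraries carried Xist and KO-labelled libraries had almost none, so sex and genotype label cannot be told apart for these 4 genes. The same is true of the rest of the 35.

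Paralog ratios within a library do not depend on the scaling of libraries. A total of 10 ratios were compared by a two-sided exact permutation test over the 8 libraries, whose smallest possible p is 0.0286, with adjustment over the 10. The log2 ratio of Pdk1 to Pdk3 was -2.36 ± 0.51 in controls against -0.48 ± 0.18 in KO-labelled libraries (SD, n = 4, exact permutation p = 0.0286, adjusted 0.0571). The ratio of Pdk2 to Pdk1 differed by -0.70 and that of Pfkfb4 to Pfkfb3 by -1.32, as log2 values of KO-labelled minus control. The ratio of Pfkm to Pfkl differed by -0.54 and that of Slc16a3 to Slc16a1 by 3.61. These 5 ratios had groups that did not overlap and shared the smallest p, which adjusted to 0.0571, so none passed 0.05. With this smallest p and the adjustment, no ratio could have passed by its own size alone. The remaining ratios overlapped. The log2 difference was 0.61 for Eno2 to Eno1 (exact permutation p = 0.0571), 0.37 for Hk2 to Hk1 (exact permutation p = 0.0857) and -0.57 for Pfkp to Pfkl (exact permutation p = 0.143). Without control 4 the difference was -0.95 for Pfkp to Pfkl, 0.33 for Eno2 to Eno1 and 0.52 for Hk2 to Hk1. For Pfkp to Pfkl and for Hk2 to Hk1, the overlap was with control 4 alone. For Slc2a3 to Slc2a1 it was 0.26 (exact permutation p = 0.229). The ratio of Ldha to Ldhb was -1.08 ± 0.18 and -1.10 ± 0.35 (SD, n = 4, exact permutation p = 1), a log2 difference of -0.01, or -0.10 without control 4.

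**Figure D4:**
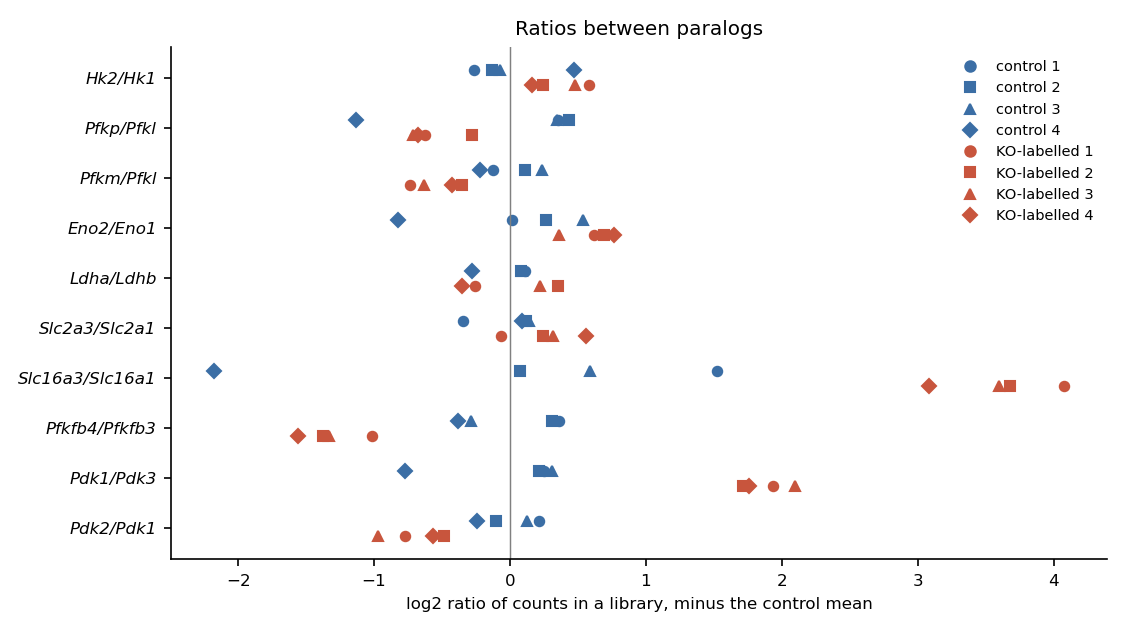
Log2 ratio of the counts of 2 paralogs in each library, minus the mean of the controls (blue, controls; red, KO-labelled; marker shape, replicate number). The ratios with Pdk1, with Pfkfb3 and with Slc16a3, and Pfkm/Pfkl, separate the groups completely, and control 4 lies apart for Pfkp/Pfkl, Ldha/Ldhb and Pdk1/Pdk3.

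Promoter sequences are shown for the gene with the highest fold change in each group with a rise. Pdk2 was added because it holds an E-box, as an example of that motif. They are the 250 bases before the first listed start of each gene, from RefSeq on GRCm38.p6, read 5′ to 3′ on the gene's strand. A promoter was found for 34 of the 35 genes. Capitals mark ACGTG or GCGTG on either strand, the core of the hypoxia response element that HIF1 binds; the E-box CACGTG, read by MYC and by the glucose-sensing MLX factors, contains ACGTG on both strands.
Slc16a3 (chr11:120948817-120949066, plus strand): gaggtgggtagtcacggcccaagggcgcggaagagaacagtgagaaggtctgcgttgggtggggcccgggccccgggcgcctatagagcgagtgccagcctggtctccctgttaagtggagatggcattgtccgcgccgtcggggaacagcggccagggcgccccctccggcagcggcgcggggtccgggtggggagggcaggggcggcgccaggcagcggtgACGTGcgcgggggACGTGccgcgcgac
Pfkl (chr10:78009808-78010057, minus strand): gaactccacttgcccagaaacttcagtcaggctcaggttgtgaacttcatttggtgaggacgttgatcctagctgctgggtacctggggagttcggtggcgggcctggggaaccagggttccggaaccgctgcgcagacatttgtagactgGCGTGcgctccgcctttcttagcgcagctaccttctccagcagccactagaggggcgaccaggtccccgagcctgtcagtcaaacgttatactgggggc
Pfkfb3 (chr2:11553930-11554179, minus strand): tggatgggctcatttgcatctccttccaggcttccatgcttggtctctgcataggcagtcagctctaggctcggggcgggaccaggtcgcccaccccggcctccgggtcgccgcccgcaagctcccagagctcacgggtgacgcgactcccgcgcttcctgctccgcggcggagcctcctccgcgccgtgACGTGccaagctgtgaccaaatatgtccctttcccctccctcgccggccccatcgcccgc
Pdk1 (chr2:71872974-71873223, plus strand): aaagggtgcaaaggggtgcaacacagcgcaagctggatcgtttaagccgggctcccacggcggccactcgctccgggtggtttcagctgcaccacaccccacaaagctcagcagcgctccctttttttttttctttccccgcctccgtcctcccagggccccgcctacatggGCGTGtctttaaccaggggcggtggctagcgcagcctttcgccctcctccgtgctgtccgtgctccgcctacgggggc
Pdk2 (chr11:95041372-95041621, minus strand): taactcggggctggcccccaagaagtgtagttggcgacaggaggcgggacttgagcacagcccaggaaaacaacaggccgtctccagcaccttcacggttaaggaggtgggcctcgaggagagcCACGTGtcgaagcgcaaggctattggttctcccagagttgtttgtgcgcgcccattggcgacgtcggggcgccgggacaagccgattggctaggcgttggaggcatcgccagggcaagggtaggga

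Among the 34 promoters, 26 (76.5%) held ACGTG or GCGTG, against 38.6% of 27025 genes in the RefSeq table, and 6 (17.6%) held CACGTG, against 6.05%. Both cores contain a CG pair, and the 34 promoters were richer in them, with a median of 15 CG pairs and 61.2% G and C, against 6 and 52.0% over all genes. The core was present in 10 of 11 promoters of genes that rose, 5 of 6 of genes that fell and 11 of 17 of genes that did not pass. In the same order, CACGTG was present in 3 of 11, 1 of 6 and 2 of 17. A search for TGATGNAA on both strands, a form of the element bound by ATF4, found 0 matches in the 34 windows and 3.53% over all genes. A match is only a match of letters, and no match says only that these letters are not in this window.

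Of 14 known regulators of the pathway, all tested, 6 rose and 1 fell (30.0% of all genes tested passed). Arrdc4, an arrestin that lowers glucose uptake, had 50.2, 50.9, 53.1 and 35.6 CPM in controls 1 to 4 and 313, 259, 308 and 321 CPM in KO-labelled 1 to 4 (2.66, SE 0.13, adjusted p = 2.33e-09 by edgeR). Its relative Txnip, induced by glucose through MondoA, had 9.37, 7.38, 7.996 and 4.397 CPM in controls 1 to 4 and 43.9, 44.4, 45.1 and 46.0 CPM in KO-labelled 1 to 4 (2.62, SE 0.17). No KO-labelled library overlapped a control for either gene. Mycn rose from 0.983 ± 0.238 to 3.16 ± 0.859 CPM (SD, n = 4, log2 fold difference 1.70, SE 0.28) and Atf4, the factor of the amino acid stress response, by 0.97 (SE 0.12). Max and Hif1a also rose, by 0.45 and 0.45, and Myc fell (-0.43, SE 0.10); these 3 were picked after their values had been seen.

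Among 12 hypoxia indicators outside glycolysis, 11 were tested, 4 rose and 7 did not pass (30.0% of all genes tested passed). Vegfa, the vascular growth factor, had 11.1, 9.55, 11.2 and 6.27 CPM in controls 1 to 4 and 66.4, 64.6, 68.9 and 69.0 CPM in KO-labelled 1 to 4 (2.81, SE 0.15, adjusted p = 6.80e-09 by edgeR). Bnip3, a mitophagy receptor, rose by 1.70 (SE 0.19), Ndrg1 by 1.14 (SE 0.23) and Mxi1, a MYC antagonist, by 0.60 (SE 0.20), with Mxi1 overlapping and lost without control 2 or 3 or KO-labelled 2, 3 or 4.

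Of 17 genes of glycogen metabolism and gluconeogenesis, 14 were tested, 7 rose and 7 did not pass (30.0% of all genes tested passed). Pck2, the mitochondrial enzyme that makes phosphoenolpyruvate from oxaloacetate, had 6.36, 2.99, 3.55 and 3.69 CPM in controls 1 to 4 and 56.3, 55.0, 59.0 and 51.9 CPM in KO-labelled 1 to 4 (3.74, SE 0.18, adjusted p = 2.84e-09 by edgeR). Pygb, the brain glycogen phosphorylase, had 266, 229, 256 and 278 CPM in controls 1 to 4 and 461, 461, 409 and 484 CPM in KO-labelled 1 to 4 (0.82, SE 0.09). Gyg, the glycogen primer, rose by 0.58 (SE 0.11) and Ugp2, which makes UDP-glucose, by 0.49 (SE 0.10). Of 7 side enzymes of sugar phosphates 2 rose and 1 fell (30.0% of all genes tested passed). Gpd1, which makes glycerol 3-phosphate, rose (0.64, SE 0.21), with 0.97 without control 4 and the call lost without control 1, 2 or 3 or KO-labelled 1, 2 or 4. Gfpt1, the entry to the hexosamine pathway, rose by 0.26 (SE 0.08), lost without control 1, 2 or 4 or KO-labelled 2 or 4. Pgp, phosphoglycolate phosphatase, fell (-0.47, SE 0.14), lost without KO-labelled 4.

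The citrate cycle and its exits are where pyruvate carbon goes next. Of 24 genes, all tested, 2 rose and 5 fell, a share near the 30.0% of all genes tested that passed. Acly, which turns exported citrate into acetyl-CoA for lipid synthesis, had 121, 111, 114 and 129 CPM in controls 1 to 4 and 56.8, 58.2, 51.7 and 54.7 CPM in KO-labelled 1 to 4 (-1.10, SE 0.09, adjusted p = 4.12e-07 by edgeR), every KO-labelled library well below every control. Idh1, the cytosolic NADPH-producing isocitrate dehydrogenase, fell (-0.54, SE 0.09), as did Idh3a of the cycle itself (-0.39, SE 0.11), the latter lost without control 1 or KO-labelled 4. Ogdhl rose by 0.37 (SE 0.10).

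**Figure D5:**
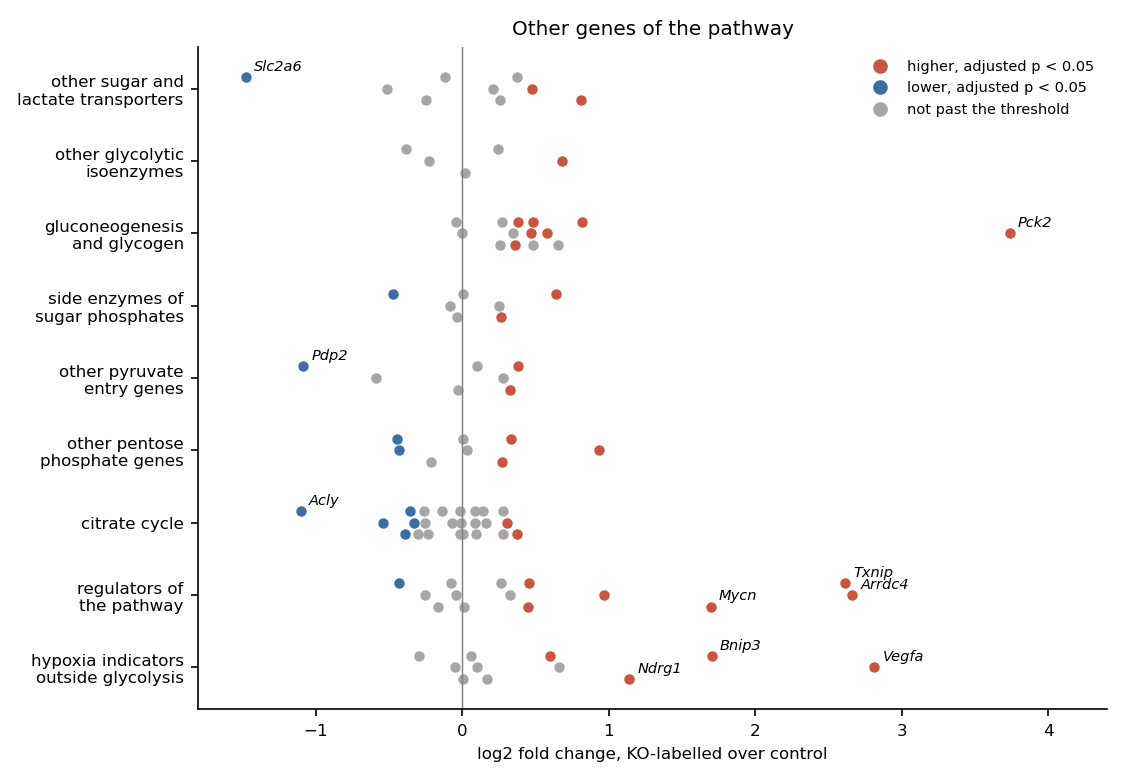
Log2 fold change, KO-labelled over control, of each tested gene on the 9 lists around the pathway (red, higher; blue, lower; grey, not past an adjusted p of 0.05; genes beyond 1 in size are named). Pck2, Vegfa, Arrdc4 and Txnip lie above 2.6, and the citrate cycle gene farthest from 0 is Acly at -1.10.

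Markers of other cell types were also measured. Beside the counts below, 16.1% of all genes tested were higher and 13.9% lower. Mesenchymal markers summed to 31.3 to 82.5 CPM in the controls, against 11.9 to 14.6 CPM in the KO-labelled group, with 4 of 6 tested genes lower and 1 higher, and skeletal muscle markers to between 32.8 and 44.3 CPM and between 18.6 and 21.1 CPM, with 3 of 4 lower. Endothelial markers summed to at most 13.3 CPM, microglial markers to at most 4.99 CPM and erythroid markers to at most 2.55 CPM in any library. Hba-a1 and Hba-a2, the adult alpha globins, were at 0 in all 8. Neuronal markers, 2 of 8 higher and 2 lower, summed to 398.8 to 522.6 CPM in the controls, against 368.1 to 445.2 CPM in the KO-labelled group. Markers of the oligodendrocyte lineage, 3 of 7 higher and 2 lower, summed to between 2650 and 2972 CPM and between 2453 and 2919 CPM. The part of these cells in the results was not tested.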

How the data were processed

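Total RNA of 8 samples was sequenced from stranded libraries, paired-end, on either of a pair of HiSeq models, per the labels' protocols; the model used for each library is not stated. The authors deposited raw counts per gene, made with CASAVA and HTSeq 0.6.1p1 on mm9 (NCBIM37), per the submitters' processing notes; for the aligner, the strand setting and the handling of multiply mapped reads, nothing is given in the sources used here. Overlapping and antisense genes, and genes with near copies, are therefore uncertain.

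KO-labelled libraries were compared with controls in edgeR 4.0.16 (R 4.3.3) by its quasi-likelihood test, after filterByExpr and TMM scaling, with Benjamini-Hochberg adjustment over 15021 genes at 0.05. CPM means are ± SD, and intervals are 95%. Levels between genes are CPM per kb of GENCODE exon union on GRCm38, a build other than that of the counts. The union joins all exons of a gene and is not the length of a transcript. Shares within a family depend on it. In these libraries 3 counts were worth between 0.126 and 0.261 CPM. No pair of libraries agreed within sampling noise. The test was checked on simulated data with 14757 genes, where 7.26% of calls were false. Alternatives were other scalings, filters, DESeq2 1.42.0, voom of limma 3.58.1, robust dispersion, a replicate block and leaving out each library.

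The 35 genes and all lists (9 around the pathway, 10 of cell type markers) were chosen with earlier results of these data known. Values in every library are given for genes past the threshold with a log2 fold change of at least 0.5 in size and for the genes of the paralog ratios, and for other genes where they help. From each pathway list, up to 4 genes past the threshold with the largest change are named. Pck2, Vegfa and some others were given in every library after their values had been seen.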

Additional observations from a re-analysis of the deposited data

Results flagged for a closer look

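For the 35 genes and 10 paralog ratios, 90 groups of 4 libraries were examined for a library far from the other 3, by Dixon's test at 95% of the gap as a share of the range. Chance flags about 1 in 20 such groups, and 10 were flagged, 8 of them for control 4. The groups are not independent, since they share libraries and genes. The flagged ratios with Pfkp and Pdk1 reuse the low values of these genes in control 4. The number of flags therefore cannot be weighed against the chance rate. Control 4 had 46.0 CPM of Gpi1 where the other controls had between 85.6 and 89.6 CPM, and 12.0 CPM of Pfkp where they had between 32.4 and 34.95 CPM. It had 9.31 CPM of Pdk1 (others 15.4 to 15.8 CPM), 3.30 CPM of Pdk4 (others 7.89 to 8.71 CPM) and 227.5 CPM of Dlat (others 280.5 to 283.8 CPM). Its log2 ratio of Pfkp to Pfkl was -2.98 (others -1.51 to -1.42), that of Ldha to Ldhb -1.36 (others -1.01 to -0.98) and that of Pdk1 to Pdk3 -3.12 (others -2.14 to -2.05). The remaining flags were KO-labelled 2 for Taldo1, with 88.5 CPM (others 114.9 to 118.8 CPM), and control 1 for the log2 ratio of Slc2a3 to Slc2a1, at -1.05 (others -0.62 to -0.57).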

How the results depend on the processing

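Of the 18 genes that passed, 9 kept their direction and the threshold under every alternative run: Slc16a3, Pfkl, Tpi1, Pfkfb3, Pdk1, Pdk2, Pdk4, Pdhb and Pgd. The other 9 lost the threshold in at least 1, and 4 that had not passed did so in at least 1 (Gapdh, Pdha1, Gpi1 and Pfkp). Of 597 values of single genes, 527 kept direction and side of the threshold, and no call changed sign. The median of all genes moved by over 0.1 on the log2 scale in 1 setting, to -0.13 with no filter on low counts. The number of genes that fell was 1 with no filter. By group, with no filter, 1 transport gene rose and 0 fell, 0 fell in glycolysis, PFKFB and pyruvate entry, and 1 in the pentose phosphate pathway. With RLE, upper-quartile or total-count scaling, at least 1 CPM in 4 libraries, DESeq2 or robust dispersion, 1 transport gene rose. In glycolysis 2 genes fell with upper-quartile or total-count scaling, at least 1 CPM in 4 libraries, DESeq2 or voom. With total-count scaling 1 PFKFB gene rose. Without the X-linked genes, 0 PFKFB and 0 pyruvate entry genes fell, and the medians were 0.40 and 0.60.

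Leaving out 1 library at a time gave between 9 and 13 rises and between 1 and 8 falls over the 35 genes. By group there were 1 to 2 rises and 0 to 1 falls in transport, 0 to 4 falls in glycolysis, 1 to 2 rises and 0 to 1 falls in PFKFB, 0 to 1 falls in pyruvate entry and 1 to 2 falls in the pentose phosphate pathway. The cause was not tested in any of these cases. Deviations of same-numbered libraries correlated at 0.254, 0.279, -0.158 and 0.00987, which does not settle whether the numbers pair them. Controls 1 and 2 correlated best with the KO-labelled library of their own number, and controls 3 and 4 did not. With the replicate block, 3 of the 35 genes fell, and by group 1 transport and 1 PFKFB gene rose, 0 fell in PFKFB and pyruvate entry and 1 fell in the pentose phosphate pathway. Low counts limit Slc16a3 and Pfkfb1.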
